A study of Arabidopsis thaliana with 16 samples.

Results

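The Arabidopsis thaliana genes PRA1.B3 and AT4G01810, both of vesicle transport, were followed across all array columns of a comparison of blue light with white light. PRA1.B3 (locus AT5G05380) was read by feature 3982 and AT4G01810 by feature 3256, each the only feature that the platform annotation pairs with that gene alone. These are 2 of 692 single-gene features and of 3439 features in all. Both genes were selected on their measured blue and white light values: the level of PRA1.B3 was lower in blue light, and AT4G01810 was above 0 in blue light where it was listed at 0 in white light. Their blue against white difference is therefore given as a description, with no test. The plants were wild type of the ecotype Landsberg and spent 48 hours under either blue or white light of 20 µE, and total RNA was hybridised to arrays. There were 8 blue light and 8 white light columns, numbered 1 to 8 in each. The labels give neither organ nor age, and do not say whether columns came from separate plants, so p-values measure only the spread between these samples, which may be technical.

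Vesicles carry proteins and lipids between the endoplasmic reticulum, the Golgi apparatus, endosomes, the vacuole and the plasma membrane. Rab GTPases mark each membrane and steer vesicles to their target, and they hold on to membranes through a prenyl anchor. PRA1 proteins (prenylated Rab acceptors) are small membrane proteins that bind prenylated Rabs, and plants carry a family of them in the endomembrane system. AT4G01810 encodes a protein of the Sec23/Sec24 type. Sec23 and Sec24 form the inner layer of the COPII coat, which buds vesicles from the endoplasmic reticulum, with Sec24 picking cargo and Sec23 promoting GTP hydrolysis by the small GTPase SAR1.

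The deposited values are linear intensities without a stated unit. The total over all features of a column ran from 3067 to 3735 in blue light and from 1044 to 3320 in white light, and white light columns 7 and 8 had the lowest totals. Between 425 and 492 features per blue light column, and between 404 and 574 per white light column, were listed at exactly 0. Because most features had a higher intensity in blue light as deposited, columns were also brought to a common distribution by quantile normalization. Columns with neighbouring numbers (1 and 2, 3 and 4, 5 and 6, 7 and 8) resemble each other and were averaged, which gave 4 averaged samples per light, called samples 1 to 4.

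PRA1.B3 was lower in blue light on every column, as deposited and after normalization. Its deposited intensity on blue light columns 1 to 8 was 0.339, 0.314, 0.223, 0.367, 0.362, 0.373, 0.349 and 0.226. On white light columns 1 to 8 it was 0.967, 1.06, 0.472, 0.819, 1.68, 0.885, 0.388 and 0.420. The groups did not overlap: the highest blue light value was column 6 and the lowest white light value column 7, which stood close together. As deposited the blue light columns were also more alike, with a mean intensity of 0.319 ± 0.0614 (SD, n = 8 columns), against 0.837 ± 0.430 for white light. After quantile normalization the spread over the 8 columns was the same in both, at 0.32 in blue light and 0.32 in white light (SD, log2). As deposited, every blue light column lay below every white light column for 26 of the 2864 features tested (0.908%), a pattern on which PRA1.B3 was chosen. That share belongs to the deposited scale, on which the median feature was higher in blue light by 1.37 (log2). After normalization limma called 16.4% of the features tested lower in blue light, and the share without overlap is not given. With less signal in bulk RNA, fewer cells that carry the transcript and less transcript per cell cannot be told apart.

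**Figure D1:**
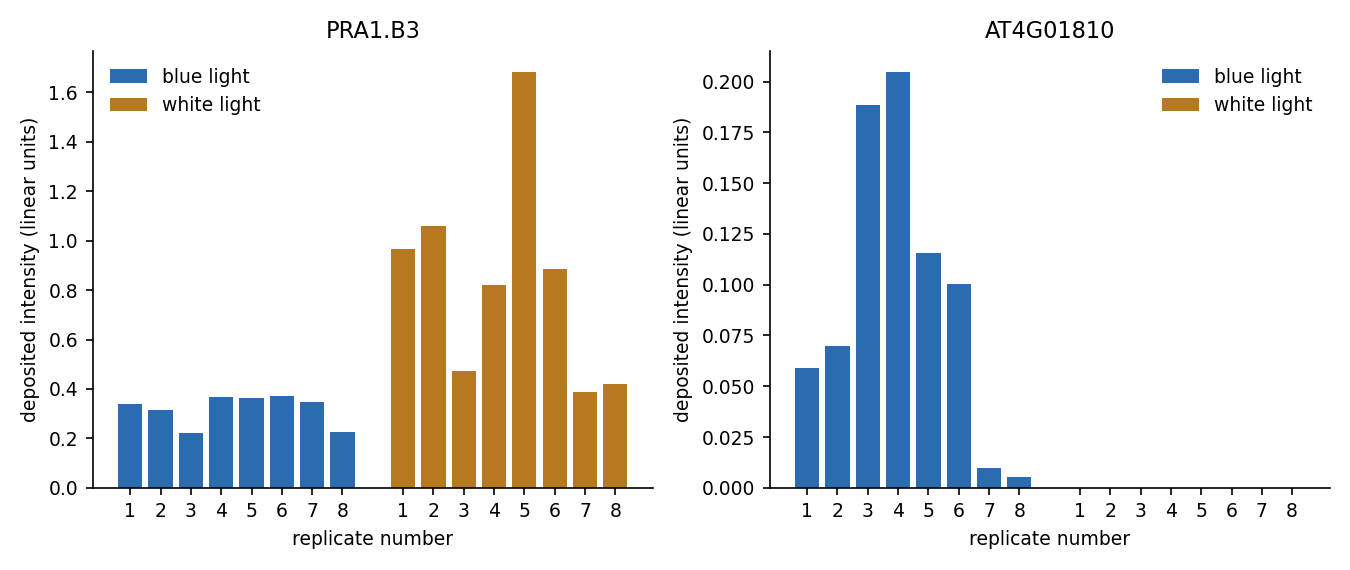
Deposited intensity (linear units, vertical axis) of PRA1.B3 (left) and AT4G01810 (right) in each array column, by replicate number, with the 8 blue light columns left of the 8 white light columns. PRA1.B3 stays at or below 0.373 in blue light and at or above 0.388 in white light, while AT4G01810 has bars in blue light alone because all 8 white light columns are listed at 0.

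The place of PRA1.B3 among the other features of the same column does not depend on the scale of that column. In blue light, between 13.6% and 34.6% of the features above 0 had a lower intensity than PRA1.B3 (median 23.1%). In white light this share was between 77.4% and 91.6% (median 86.3%). PRA1.B3 thus ranked among the dimmer features of every blue light column and among the brighter features of every white light column. The shares of the groups lay far apart. This restates the contrast on which PRA1.B3 was chosen, and how many other features separate by rank is not given.

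**Figure D2:**
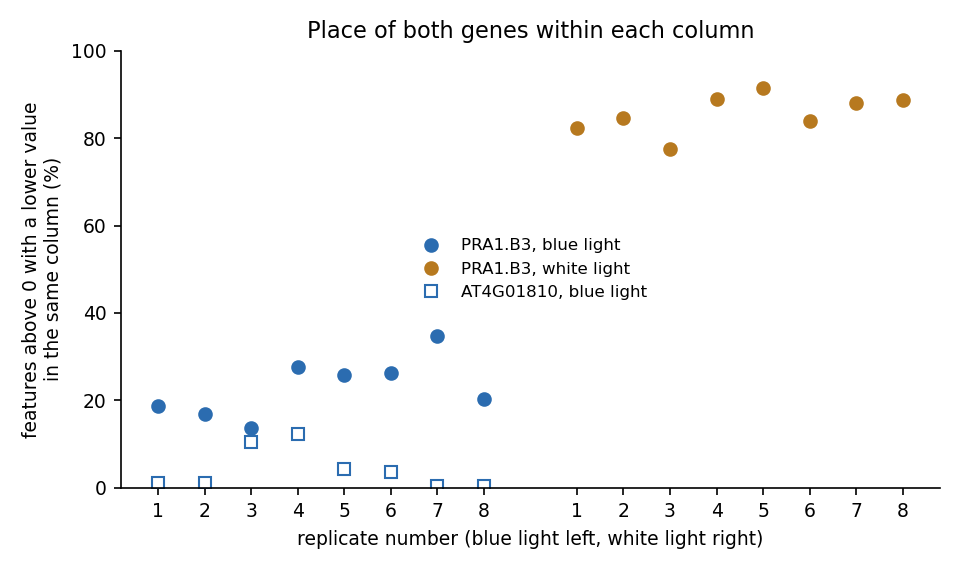
Share of the features above 0 in a column (%, vertical axis) with a lower intensity than PRA1.B3 (filled circles) or AT4G01810 (open squares), by replicate number, blue light left and white light right. PRA1.B3 lies between 13.6% and 34.6% in blue light and between 77.4% and 91.6% in white light, and AT4G01810 lies at 12.3% or below in blue light and has no point in white light, where it is listed at 0.

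After quantile normalization PRA1.B3 had levels of -2.69, -2.59, -2.28 and -2.27 (log2) in blue light samples 1 to 4. In white light samples 1 to 4 the levels were -0.13, -0.10, 0.24 and 0.20. Samples 3 and 4 were the higher ones in either light, and the distance between lights was nearly the same for each number. Within the 4 numbers the blue minus white difference was -2.56, -2.49, -2.52 and -2.48 on the log2 scale. The group means were -2.46 ± 0.21 in blue light and 0.05 ± 0.19 in white light (SD, n = 4 averaged samples each), a difference of -2.51 (SE 0.25). Of the 2864 features tested, 76 had a larger difference in either direction and 46 a more negative one. As deposited the contrast was less even, since white light was 3.10, 2.19, 3.49 and 1.41 times as bright as blue light within numbers 1 to 4.

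Neighbouring columns agreed less well for PRA1.B3 than for a typical feature. The absolute difference between neighbours had a median of 0.37 (log2) over the 8 neighbour pairs, with a range of 0.03 to 0.72, against a median of 0.18 over all tested features. The widest gaps were those between columns 3 and 4, at 0.72 in either light. Every neighbour gap was well below the difference between lights. The mean level of PRA1.B3 over all columns was above that of 58.9% of the tested features.

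Features with numbers close to that of PRA1.B3 were on balance lower in blue light too. Over the 24 nearest tested feature numbers the median difference was -0.70 (log2), with a range of -2.17 to 0.96, and 19 of the 24 were lower. PRA1.B6 is among these 24 and gives the lowest value. Nothing in the sources tells how feature numbers relate to places on the array, and the part of this neighbourhood in the result was not tested. With a running median over 25 consecutive features subtracted, PRA1.B3 was at -1.66 (SE 0.24).

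The size of the PRA1.B3 difference followed the scaling, and its sign, on which the gene was chosen, did not. It was -1.25 as deposited, -1.95 scaled to total signal, -2.74 with median centring and -2.69 with cyclic loess. These scalings moved the median of all features by 1.37, 0.67, -0.12 and 0.03. Taken relative to that median, PRA1.B3 was at -2.62 as deposited, at -2.62 scaled to total signal, at -2.62 with median centring and at -2.72 with cyclic loess. The deposited, total-scaled and median-centred values differ only by a factor per column, which shifts all features nearly alike. Their equal values were therefore fixed in advance and add no support.

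The list of the PRA1 family, matched in the RefSeq gene table and not in the platform annotation, held 19 genes. Besides PRA1.B3, PRA1.B6 (AT5G07110, feature 3977) had a single-gene feature, and 4 further features were each paired with several PRA1 genes at once. Several genes on a feature leave its signal assigned to none. PRA1.B3 was chosen on feature 3982 and on none of these 5. In limma's fit over all 2864 features, 1 of the 5 fell in blue light, 1 rose and 3 did not pass, with a median difference of -0.34 against 0.00 over all features tested. Among all features tested, 16.4% fell and 15.9% rose, and 5 features are too few to set against these shares. The balance of calls followed the scaling: 49.2% of calls were higher in blue light after quantile normalization, 97.2% as deposited, 83.4% scaled to total signal and 40.7% with median centring.

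PRA1.B6, a further prenylated Rab acceptor of the B group, fell in blue light. Its deposited intensity on blue light columns 1 to 8 was 0.854, 0.901, 0.700, 0.858, 0.743, 0.753, 0.892 and 1.25. On white light columns 1 to 8 it was 3.34, 3.13, 0.880, 1.99, 2.59, 2.76, 0.885 and 2.44. The deposited groups overlapped, because white light columns 3 and 7 were as low as the blue light ones and blue light column 8 was higher. Normalized levels were -0.92 ± 0.50 in blue light and 1.25 ± 0.39 in white light (log2, SD, n = 4 averaged samples each) and did not overlap. The share of all features without overlap between averaged samples is not given, so this does not set PRA1.B6 apart. The difference was -2.17 (SE 0.33, limma adjusted p = 0.00125), lower in blue light within 4 of 4 numbers, where it was -2.31, -1.99, -2.41 and -1.95. Its call held under all 18 alternatives, with differences from -2.73 to -1.14. The smallest of these, -1.14 (adjusted p = 0.0274), came with the running median over feature numbers subtracted. PRA1.B6 and PRA1.B3 have nearly adjacent feature numbers, and the 24 tested features nearest to PRA1.B6 had a median difference of -0.83, PRA1.B3 among them.

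Feature 3872 is paired with PRA1.B3 together with 2 other PRA1 genes. Its deposited intensity on blue light columns 1 to 8 was 1.08, 1.08, 0.879, 0.916, 0.812, 0.780, 0.388 and 0.478. On white light columns 1 to 8 it was 1.06, 1.01, 0.537, 0.675, 0.785, 0.767, 0.0761 and 0.113. The deposited groups overlapped, and columns 7 and 8 were the lowest in either light. Normalized levels were -1.10 ± 0.38 in blue light and -0.56 ± 0.81 in white light (log2, SD, n = 4 averaged samples each). The difference of -0.54 missed the threshold (SE 0.41, limma adjusted p = 0.339). Within the numbers it was -0.63, -0.76, -0.93 and 0.17, so number 4 ran the other way. Without white light sample 4 it passed at -0.93 (adjusted p = 0.0279). As deposited its difference had the other sign, 0.72, and scaled to total signal it was 0.02, neither passing. Relative to the median of all features it was at -0.54 after quantile normalization, -0.64 as deposited and -0.65 with cyclic loess. The deposited groups of feature 3872, which also covers PRA1.B3, overlapped, unlike those of the feature of PRA1.B3 alone. The latter was chosen on a contrast without overlap, so this unlikeness is no result. A difference between these features was not tested.

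Feature 4324, paired with 2 other PRA1 genes, rose in blue light. Its deposited intensity on blue light columns 1 to 8 was 1.57, 1.13, 1.70, 1.65, 1.97, 1.98, 0.359 and 0.670. On white light columns 1 to 8 it was 0.475, 0.164, 0.209, 0.219, 0.210, 0.193, 0.0709 and 0.0908. Most white light columns lay far below the blue light ones, and the groups touched only through blue light column 7 and white light column 1. On this deposited scale the median feature was itself higher in blue light by 1.37 (log2). The share of all features that separate as far is not given. Normalized levels were -0.24 ± 0.85 in blue light and -1.75 ± 0.23 in white light (log2, SD, n = 4 averaged samples each). The difference was 1.52 (SE 0.40, limma adjusted p = 0.0158), higher in blue light within 4 of 4 numbers. It passed under all 18 alternatives, from 1.27 to 2.78, with adjusted p-values up to 0.0493. The highest of these was as deposited, where feature 4324 was at 1.42 relative to the median of all features.

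The other 2 shared PRA1 features did not pass. Feature 1736 had normalized levels of -0.69 ± 0.23 (blue light) and -0.35 ± 0.48 (white light), a difference of -0.34 (SE 0.30, adjusted p = 0.416), and as deposited it passed as higher at 0.91 (adjusted p = 0.0468). With the running median over feature numbers subtracted it passed as lower at -0.78 (adjusted p = 0.0193). Feature 1017 had normalized levels of -1.47 ± 0.16 (blue light) and -1.63 ± 0.31 (white light), a difference of 0.16 (SE 0.26, adjusted p = 0.670). It passed as higher as deposited (1.64) and scaled to total signal (0.94), as did 53.4% and 37.5% of all features tested. Relative to the median of all features, feature 1017 was at 0.28 as deposited and 0.27 scaled to total signal. Feature 1736 was at -0.45 relative to that median as deposited. Across the family, the calls that held under every alternative were therefore 1 fall, that of PRA1.B6, and 1 rise, that of feature 4324.

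**Figure D3:**
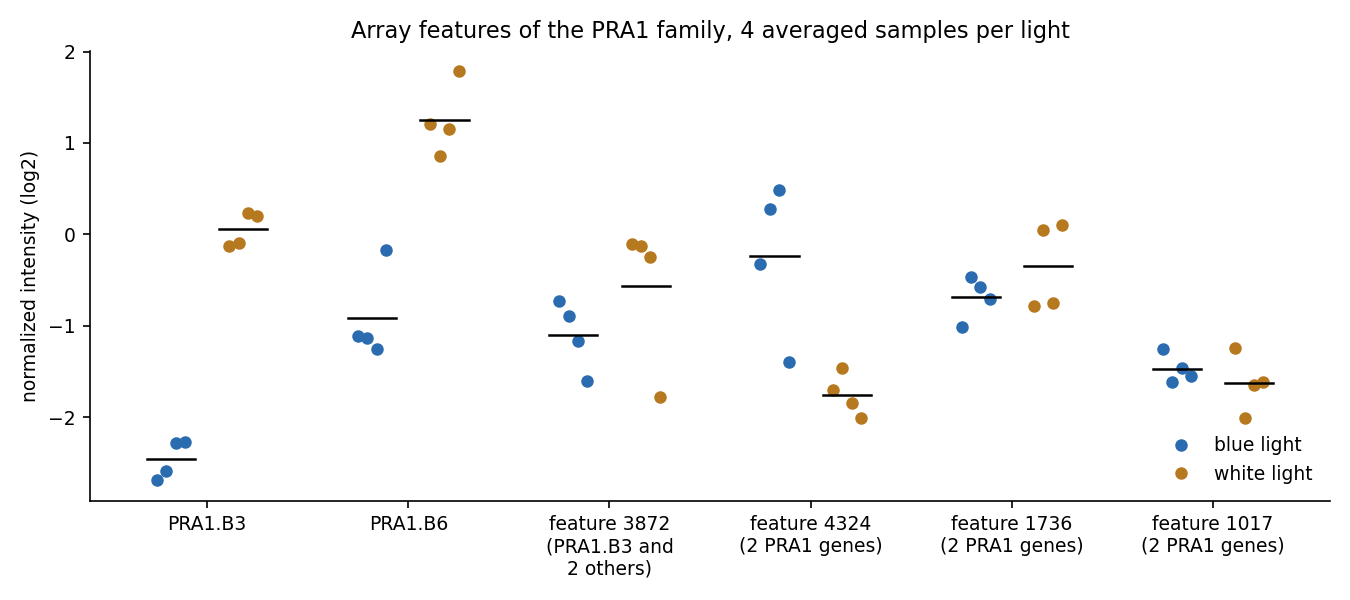
Quantile-normalized intensity (log2, vertical axis) of the 6 features of the PRA1 family, with 4 averaged samples in blue light left of 4 in white light, and the mean as a bar. PRA1.B3 and PRA1.B6 are lower in blue light and feature 4324 is higher, each without overlap, and features 3872, 1736 and 1017 overlap. The share of all features without overlap is not given, so the lack of overlap sets none of these features apart. Among all features tested, 16.4% were called lower and 15.9% higher.

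**Figure D4:**
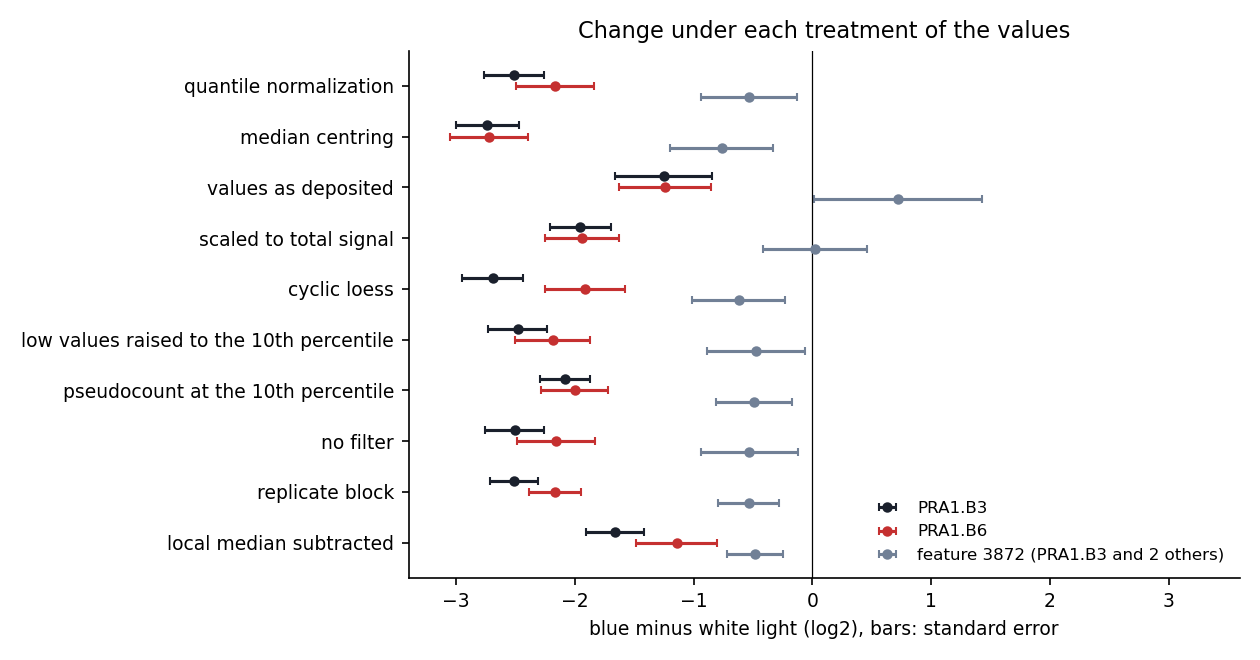
Blue minus white light difference (log2, horizontal axis, bars are standard errors) of PRA1.B3, PRA1.B6 and feature 3872 under 10 treatments of the values. PRA1.B3 stays between -2.74 and -1.25 and PRA1.B6 between -2.73 and -1.14, while feature 3872 lies on both sides of 0. Relative to the median of all features, which is not drawn, feature 3872 was at -0.54 after quantile normalization and at -0.64 as deposited.

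AT4G01810 was above 0 in blue light alone. Its deposited intensity on blue light columns 1 to 8 was 0.0592, 0.0701, 0.188, 0.205, 0.116, 0.100, 0.00961 and 0.00542, and it was listed at 0 on each of the 8 white light columns. Columns 3 and 4 were highest and columns 7 and 8 lowest, so the blue light values spanned a wide range, while neighbouring columns lay close on this linear scale. The mean over the blue light columns was 0.0942 ± 0.0741 (SD, n = 8 columns). Averaged in neighbours, the blue light samples 1 to 4 had 0.0646, 0.197, 0.108 and 0.00751.

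Even in blue light AT4G01810 was among the dimmest features. Between 0.338% and 12.3% of the features above 0 had a lower intensity in the same blue light column (median 2.42%). White light columns did report values this low for other features. In them, between 13 and 63 features were reported above 0 with an intensity below the lowest blue light value of AT4G01810. Between 939 and 2202 features in a white light column were above 0 and below its highest blue light value. The same cut-offs gave 0 to 10 and 253 to 515 features in blue light columns. The scales were unlike, since column medians above 0 were 0.112 to 0.338 in white light and 0.475 to 0.726 in blue light. These counts therefore do not tell what the listed 0 of AT4G01810 stands for, which was not tested. Since a listed 0 may stand for a value that could not be estimated, no fold is given.

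The pattern of AT4G01810 was rare on the array. Of the 3439 features, 129 had a 0 on each of the 8 white light columns, and 99 of these were at 0 on all 8 blue light columns too. Only 8 features (0.233%) were at 0 throughout white light and above 0 on every blue light column, and the pattern on which AT4G01810 was chosen is that of these 8. The remaining 7 of them all had a higher mean in blue light than AT4G01810. A single-gene feature among those 7 was AT2G21530, named after its values were seen, at 0.560 ± 0.266 in blue light (SD, n = 8 columns). The opposite pattern, at 0 throughout blue light and above 0 on every white light column, was found for 2 features.

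With low values kept through a pseudocount of 0.0764, the difference of AT4G01810 was 0.68 on the log2(value + pseudocount) scale. The blue light mean was -3.03 ± 0.44 and the white light mean -3.71 with no spread (SD, n = 4 averaged samples each). This number is set by the pseudocount, since it was 2.11 with a pseudocount of 0.00973 and 0.08 with a pseudocount of 1. It was 0.42 without blue light sample 2, which held the brightest columns. The 24 tested features nearest to it in number had a median difference of 0.20 (log2), and 9 of them were lower in blue light.

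Of the COPII coat, a list of 24 genes, no other gene had a single-gene feature. Feature 3818 is paired with 2 COPII genes other than AT4G01810 and is assigned to neither. Its deposited intensity ran from 0.150 to 0.301 over the blue light columns (median 0.233) and from 0.107 to 0.188 over the white light columns (median 0.135). The deposited groups overlapped, with most blue light columns brighter. Its normalized level averaged -2.94 ± 0.51 (blue light) and -2.03 ± 0.46 (white light) (log2, SD, n = 4 averaged samples each). The difference of -0.90 (SE 0.34, limma adjusted p = 0.0662) did not pass, although blue light was lower within 4 of 4 numbers. With the replicate number as a block it passed (adjusted p = 0.0153), as it did with 16 separate columns (adjusted p = 0.00445) and without blue light sample 4 (-1.14, adjusted p = 0.0267). As deposited it had the other sign, at 0.68, and scaled to total signal it was -0.02, neither passing. Relative to the median of all features it was at -0.90 after quantile normalization and at -0.69 as deposited.

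The wider machinery of vesicle transport was hardly on the array as named features. The lists (the PRA1 family, COPII, COPI and ARF GTPases, Rab GTPases and their regulators, SNAREs, tethers, and clathrin with adaptors and sorting proteins) held 303 genes. Of these, 3 had a single-gene feature: PRA1.B3, AT4G01810 and PRA1.B6. No feature, single or shared, was paired with a gene of the COPI, Rab, SNARE, tether or clathrin lists. Outside the 2 genes chosen, 1 vesicle transport gene, PRA1.B6, could thus be tested by name. It fell, as did 16.4% of all features tested, and 1 gene does not speak for vesicle transport as a whole.

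The genes closest in pattern were looked up by rank correlation over the 16 columns, among 598 single-gene features above 0 on at least 8 columns. The points share their light group and their neighbours, so the coefficients mostly mirror the blue against white contrast and are descriptions. PRA1.B3 was most like AT3G56010 (Spearman's rho 0.87), GH9B12 (0.86), an endoglucanase of the cell wall family GH9, and SECE1 (0.85), a subunit of the Sec translocase of plastids. Genes picked in this way carry the contrast on which PRA1.B3 was chosen, so their differences are given with no test. AT3G56010 was at -3.75 on the log2 scale (SE 0.75), with deposited medians of 0.0223 (blue light) and 0.0768 (white light). It was lower in blue light under all 18 alternatives, from -4.54 to -0.91. Its blue light values, 0.00173 to 0.0487, were near the floor, below the 10th percentile of values above 0 (0.0764). The difference was -0.91 with low values raised to that percentile and -1.18 with it as a pseudocount, so its size depends on how low values are treated. GH9B12 was at -1.06 (SE 0.34), although its deposited medians were 0.432 in blue light and 0.323 in white light, and the difference as deposited was 0.41. SECE1 was at -0.93 (SE 0.29), with deposited medians of 0.874 (blue light) and 0.840 (white light), and was at 0.27 as deposited. The sign of GH9B12 and SECE1 thus turned with the scaling, and both stayed below the median of all features, which was at 1.37 as deposited. PRA1.B3 was least like AT4G13680 (rho -0.93), which was above 0 on all 8 blue light columns with a median of 2.30 and at 0 on 6 of 8 white light columns.

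AT4G01810 was most like AT2G26110 (rho 0.95), AT4G12270 (0.94) and AT1G78620 (0.93), known as VTE6, a kinase of phytyl phosphate that feeds tocopherol synthesis. Its 8 tied zeros raise the coefficient of any feature that is low throughout white light. AT2G26110 was listed at 0 on 5 of 8 white light columns and AT4G12270 on 6, and both were above 0 on all 8 blue light columns, with medians of 1.12 and 0.680. The deposited intensity of AT1G78620 had medians of 2.01 for blue light and 0.0760 for white light. Its normalized difference was 3.30 (SE 0.45), with 1 white light column at 0, and has no test, since the gene was picked for following AT4G01810. The least like was AT3G09490 (rho -0.90), which was at -1.27 (SE 0.31) after normalization, likewise with no test, with deposited medians of 0.505 for blue light and 0.490 for white light. As deposited its difference was 0.09, and scaled to total signal it was -0.61, where the median of all features was at 1.37 and 0.67.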

How the data were processed

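The series matrix table held linear intensity values as deposited, and the sources used here do not give the authors' image analysis, background correction or scaling. No value was below 0, and column totals differed. Genes were named through the platform annotation and, for current symbols, the RefSeq gene table of TAIR10.1: 692 features had 1 gene (690 matched), 870 several and 1877 none. PRA1.B3, AT4G01810 and the gene lists were chosen with earlier results of these data known, and lists were matched by locus, symbol and synonym, so unnamed genes may be missed. No coordinates are given.

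A feature was tested if above 0 on at least 6 of 8 columns per light (2864 features). Intensities were put on the log2 scale with 0 as missing, quantile normalized, averaged in neighbours (the labels do not say what neighbours share) and fitted with limma 3.58.1 in R 4.3.3 (two-sided, Benjamini-Hochberg over all features, adjusted p at most 0.05), without a block. The fit was tested on simulated data. AT4G01810 could not enter this fit and was given with a pseudocount, the 10th percentile of values above 0.

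Same-numbered samples of both lights deviated together (correlations 0.39, 0.46, 0.19 and 0.35 over 2757 features, against a limit of 0.1). The main fit leaves this pairing out, so the p-values are unpaired unless the block is named. A block on the number was run as an alternative. Other alternatives changed the normalization, low values, filter, averaging and samples. Precision is limited by the number of arrays. The genes named were both chosen genes, every single-gene feature of the lists, and for each chosen gene the 3 single-gene features most like it and the 1 least like it. Shared features were added after the files were read.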

Additional observations from a re-analysis of the deposited data

Results flagged for a closer look

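Among 25 sets of 4 averaged samples, 4 had a sample that stood apart from its other 3, and chance alone marks about 5% of such sets. In blue light, PRA1.B6 stood at -0.17 in sample 4 (normalized log2), and its other samples lay from -1.26 to -1.11. Feature 3872, shared by PRA1.B3 and 2 other PRA1 genes, stood at -1.78 in white light sample 4, and its other white light samples lay from -0.24 to -0.11. Feature 3818, shared by 2 COPII genes, stood at -1.35 in white light sample 4, where the rest lay from -2.29 to -2.24. AT3G56010 stood at -2.41 in white light sample 3, where the rest lay from -3.47 to -3.36. Sample 4 is the mean of columns 7 and 8, which had the lowest total signal of either light. No sample of PRA1.B3 or AT4G01810 stood apart in this way.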

How the results depend on the processing

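PRA1.B3 kept its sign under all 18 alternatives, and its difference moved by more than the spread between averaged samples under 5: median centring (-2.74), values as deposited (-1.25), scaling to total signal (-1.95), the pseudocount (-2.08) and a running median over feature numbers subtracted (-1.66). The last was chosen after seeing the data. PRA1.B3 was selected for being lower in blue light, so its kept sign adds no support. AT4G01810 moved as deposited (1.03) and with a pseudocount of 0.00973 (2.11) or of 1 (0.0797). With the replicate block PRA1.B3 was at -2.51 and 596 features were higher and 599 lower, and among the tested features of the lists the block changed the call of feature 3818 alone. The counts of 456 higher and 471 lower features became 1530 and 44 as deposited (97.2% higher, against 49.2%), 1074 and 213 scaled to total signal (83.4% higher) and 734 and 749 with 16 separate columns. As deposited, feature 1736 passed in the other direction (0.91), and GH9B12 (0.41), SECE1 (0.27) and AT3G09490 (0.0907) turned their sign. The median of all features was at 1.37 as deposited, above each of these values. Relative to it feature 1736 was at -0.45, against -0.34 after quantile normalization. The tested vesicle transport gene, PRA1.B6, was called lower under every alternative run, where 1.54% to 26.2% of all features tested were called lower. The causes of these shifts were not tested. Each averaged sample left out in turn gave PRA1.B3 differences from -2.60 to -2.39. Dim signal limits AT4G01810, and the number of arrays limits all of these values.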
